A study of Caenorhabditis elegans with 4 samples.

Results

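LIN-15B peaks that lay at the promoter of genes running in 1 direction only were described across the autosomes of Caenorhabditis elegans L4 larvae. A peak was a member when its summit, the base of strongest signal, was from 500 bp upstream to 100 bp downstream of an annotated start of a protein-coding transcript and every gene meeting this lay on 1 strand. The pooled list held 8636 peaks, of which 7135 were autosomal, and 1618 of these were members. A further 357 autosomal peaks were at divergent promoters, where starts on both strands were in the window, and 5160 lay outside it. Chromatin immunoprecipitation followed by sequencing had been done on whole L4 larvae of mixed sex from strain OP184, which carries unc-119(tm4063) on chromosome III and the transgene wgIs184. The transgene gives LIN-15B fused to GFP (a C-terminal GFP and FLAG tag, per the label of replicate 3), and the only group has 4 samples from 3 biological replicates. Replicate 3 had 2 technical libraries that share 1 peak list and was counted once. Per the labels the worms of replicates 1 and 2 came from a stock centre (CGC) and those of replicate 3 from the laboratory that made the data, so values are given per replicate. Tissues are mixed in whole larvae, and neither the level of the tagged protein nor the state of the native lin-15B gene is stated. Without read counts in the lists, sequencing depth could not be judged.

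LIN-15B is a THAP-domain DNA-binding protein of the synMuv B class, a set of nuclear proteins first found through vulval development and known for keeping germline genes off in somatic tissue. Other synMuv B proteins form the DREAM complex, which holds an E2F and DP pair, LIN-9 and LIN-35 and represses promoters. Worm genes are packed tightly, and many messenger RNAs receive a spliced leader in place of their own 5′ end. An annotated start is therefore often the trans-splice site, with transcription beginning some way upstream of it.

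The sequences under 7 of the highest-scoring members are shown because they hold the short words that are counted in the results. Each is the whole peak as deposited, on WBcel235 (ce11), read 5′ to 3′ on the strand of the gene. Each lies upstream of the nearest annotated start, and the peak of scc-2 has its summit in an intron. Capitals mark CGCG and the 8-letter element CTGCGTCT on either strand.
cdc-48.1, chrII:10563448-10563703, minus strand: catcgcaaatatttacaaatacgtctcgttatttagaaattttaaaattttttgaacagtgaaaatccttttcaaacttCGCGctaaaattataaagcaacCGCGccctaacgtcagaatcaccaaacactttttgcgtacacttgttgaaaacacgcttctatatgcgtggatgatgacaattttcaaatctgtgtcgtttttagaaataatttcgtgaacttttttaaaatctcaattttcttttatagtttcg
rpl-35, chrIII:7854577-7854810, plus strand: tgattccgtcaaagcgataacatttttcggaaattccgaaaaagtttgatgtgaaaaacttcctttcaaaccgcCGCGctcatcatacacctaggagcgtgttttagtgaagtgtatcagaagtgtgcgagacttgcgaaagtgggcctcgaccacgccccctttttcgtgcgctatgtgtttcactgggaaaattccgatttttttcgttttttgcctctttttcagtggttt
ntl-11, chrIV:15471540-15471718, minus strand: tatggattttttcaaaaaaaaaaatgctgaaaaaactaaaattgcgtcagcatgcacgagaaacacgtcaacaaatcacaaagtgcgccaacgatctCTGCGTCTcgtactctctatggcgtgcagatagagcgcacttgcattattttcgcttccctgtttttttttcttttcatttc
eelo-2, chrIV:17249820-17249969, plus strand: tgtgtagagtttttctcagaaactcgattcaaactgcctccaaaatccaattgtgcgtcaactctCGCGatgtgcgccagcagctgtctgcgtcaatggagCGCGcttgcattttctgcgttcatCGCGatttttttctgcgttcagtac
scc-2, chrII:255291-255415, minus strand: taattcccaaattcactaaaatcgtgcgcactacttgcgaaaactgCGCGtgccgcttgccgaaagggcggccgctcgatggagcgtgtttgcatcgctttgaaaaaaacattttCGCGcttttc
Y22D7AL.10, chrIII:1619099-1619228, minus strand: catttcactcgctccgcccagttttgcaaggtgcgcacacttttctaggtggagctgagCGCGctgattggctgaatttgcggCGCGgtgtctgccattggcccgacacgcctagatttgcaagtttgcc
picd-1, chrV:104635-104725, plus strand: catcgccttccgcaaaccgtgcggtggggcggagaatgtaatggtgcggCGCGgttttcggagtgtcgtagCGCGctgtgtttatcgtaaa
The peak of eelo-2 held 3 copies of CGCG, and those of cdc-48.1, scc-2, Y22D7AL.10 and picd-1 held 2 each. The peak of rpl-35 held 1 copy. The peak of ntl-11 held no CGCG and 1 copy of CTGCGTCT. These words are descriptions of the sequence and do not mark a binding site.

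The highest-scoring members stood near the top of each replicate's own list. The score is the authors' signal value, and it was compared only within a list. The highest member lay 178 bp upstream of cdc-48.1, an AAA ATPase that extracts ubiquitinated proteins, with a pooled score of 385.4, and its covering peak ranked 1, 1 and 3 in replicates 1, 2 and 3. The peak 60 bp upstream of tasp-1 scored 338.6 and ranked 4, 4 and 2. The peak 265 bp upstream of rpl-3, a protein of the large ribosomal subunit, scored 298.9 and ranked 8, 3 and 5. These 3 members were thus within the first 8 peaks of every replicate, each of which listed 30000.

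Below them came iff-2, which encodes the translation factor eIF5A, with a score of 210.6 and ranks 15, 5 and 15. The large-subunit gene rpl-35 scored 210.3 and ranked 13, 6 and 11, although its summit was 447 bp from the start. The peak of ntl-11, a CCR4-NOT subunit gene, scored 165.3 and ranked 14, 10 and 26. The order of neighbours here was not fixed across replicates, since ntl-11 ranked above iff-2 in replicate 1 and below it in replicates 2 and 3.

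Peaks of lower score in the leading 20 spread further between replicates. The peak of scc-2, the cohesin loader, scored 143.4 and ranked 28, 11 and 30, and that of wwp-1, a HECT ubiquitin ligase, scored 131.6 and ranked 43, 19 and 23. The peak of ints-4, an Integrator subunit, scored 120.6 with its summit 46 bp inside the gene and ranked 26, 26 and 39. The peak of sec-61.G, a subunit of the translocon of the endoplasmic reticulum, scored 119.0 and ranked 44, 17 and 35. The widest spread was at Y48B6A.1, score 87.8, which ranked 37 and 47 in replicates 1 and 2 and 187 in replicate 3. All 20 nevertheless lay within the first 383 peaks of each replicate. Of these 20 peaks 15 were narrower than the 340 bp width that most members have, against 16 narrow peaks among all 165 optimal members and 0 among the other members.

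**Figure D1:**
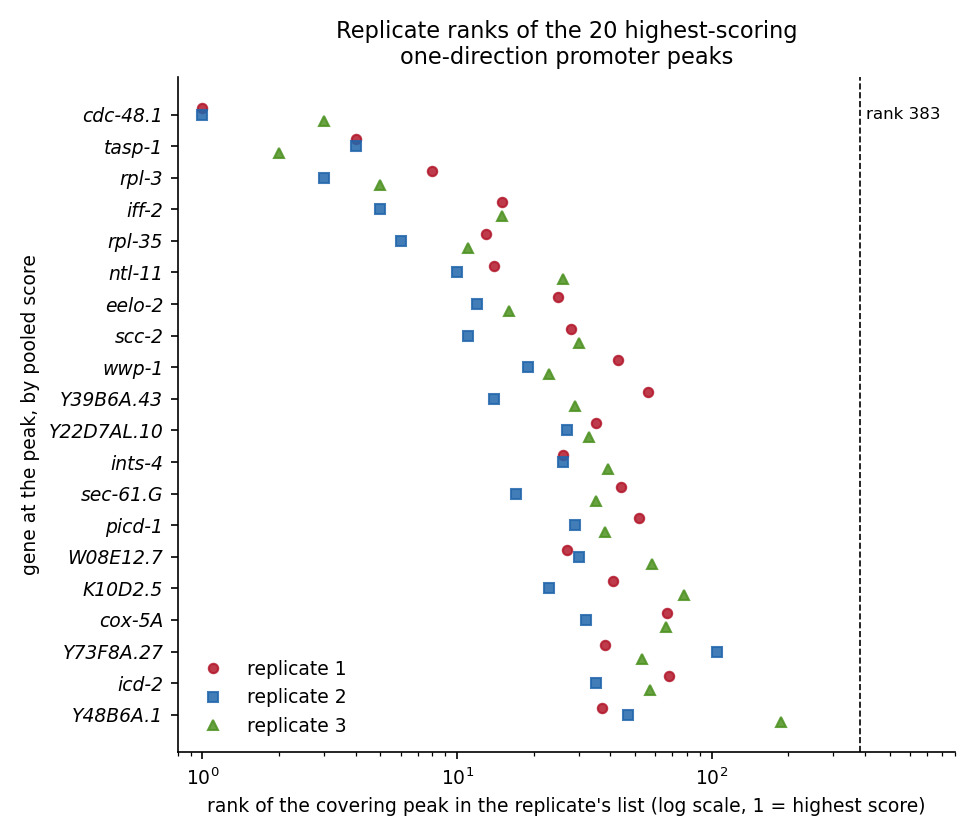
Rank of the replicate peak that covers each of the 20 highest-scoring one-direction promoter peaks, on a log axis where 1 is the highest score of the list. Rows are genes in the order of the pooled score, symbols are the 3 replicates, and the dashed line is rank 383; cdc-48.1 ranks 1, 1 and 3, and Y48B6A.1 has the most distant point, at 187 in replicate 3.

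Most members scored low. The median score was 14.7 (quartiles 12.6 to 18.9, range 11.4 to 385.4), against 19.9 at divergent promoter peaks and 13.2 outside promoters. The authors' optimal list, the outcome of their test of irreproducible discovery, was exactly the 383 highest-scoring peaks of the pooled list. It is thus a score threshold at 28.90. Of the members 165 overlapped an optimal peak by 1 bp or more, or 10.2% (95% exact interval 8.77 to 11.8), where the share over all autosomal peaks was 4.92%. The share was 30.5% (25.8 to 35.6) at divergent promoter peaks and 1.49% (1.18 to 1.86) outside promoters. Intervals cover counting error over peaks and not the variation between replicates. Members made up 81.9% of the autosomal promoter peaks and 60.2% of those that were optimal.

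The threshold fell where scores were close together. The 3 members just inside it were T26A8.4 at 29.3, efl-1 at 29.2 and btf-1 at 28.9, and the 3 just outside were tsr-2 and W01D2.3 at 28.8 and nol-56 at 28.5. The gene efl-1 encodes the worm E2F factor of the DREAM complex, and its covering peak ranked 3973, 14386 and 175, so replicate 3 alone put it in the first 383. The peak of nol-56, a nucleolar protein of ribosomal RNA modification, ranked 4831, 25670 and 156, with the same single high replicate. Of the 165 optimal members 7 had their summit outside the optimal peak and overlapped a neighbouring one, at unc-85, ccar-1, mog-4, Y82E9BR.3, Y38E10A.22, nurf-1 and R186.8.

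Members were recovered among the strongest peaks of a replicate less often than divergent promoter peaks and more often than peaks outside promoters, in each of the 3 replicates. The first 383 peaks of replicate 1 covered 140 member summits (8.65%), those of replicate 2 covered 138 (8.53%) and those of replicate 3 covered 152 (9.39%). Over all autosomal peaks the shares were 4.33%, 4.71% and 4.53% in replicates 1, 2 and 3. Members averaged 8.86% ± 0.468 (SD, n = 3), divergent promoter peaks 24.2% ± 2.12 and peaks outside promoters 1.80% ± 0.172. The difference was −15.3 points from divergent promoter peaks and 7.06 points from peaks outside promoters, and both had the same sign in 3 of 3 replicates. An exact two-sided permutation test by sign flips gave p = 0.25 for each, which is the smallest value that 3 replicates allow. The same p was found for all 16 such comparisons of replicates, and it was 0.25 after Benjamini-Hochberg adjustment over them. The replicates also went into the pool, so their lists are not independent of it.

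In the full replicate lists the order of the classes was the same. Members averaged 67.4% ± 4.11, divergent promoter peaks 79.9% ± 2.81 and peaks outside promoters 60.2% ± 8.7 (SD, n = 3). Members differed by −12.6 points from divergent promoter peaks and by 7.12 points from peaks outside promoters. The gap between members and peaks outside promoters was smallest in replicate 2, where 71.5% of members and 70.2% of outside peaks were covered.

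**Figure D2:**
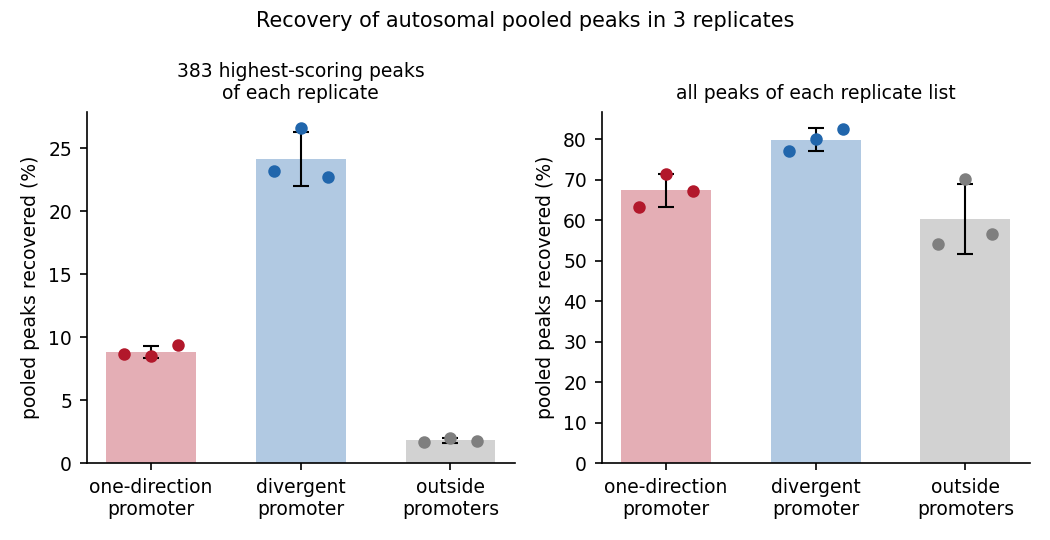
Share of autosomal pooled peaks whose summit lies inside a peak of a replicate, for the 383 highest-scoring peaks of each replicate (left panel) and for the full lists (right panel). Points are the 3 replicates in order, bars their mean and error bars the SD; among the highest-scoring peaks, members sit at 8.65%, 8.53% and 9.39%, below divergent promoter peaks and above peaks outside promoters.

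Recovery differed with score. On average 66.5% ± 5.15 of optimal members and 2.32% ± 0.379 of other members were inside the first 383 peaks of a replicate (SD, n = 3). The optimal list was built from the same libraries, so this is a description. Of the 165 optimal members 63 were in the first 383 of all 3 replicates, 49 in exactly 2, 42 in 1 and 11 in none. Of the 1453 other members 0 were in all 3, 1 was in 2, 99 were in 1 and 1353 in none. The best-scoring members in no replicate's first 383 were athp-1 (score 32.8), nstp-10 (32.6), K05C4.2 (31.9), cap-1 (31.6) and rad-54.L2 (31.3). The peak of athp-1 was listed in replicates 2 and 3 alone, at ranks 417 and 655, and that of K05C4.2 ranked 500, 488 and 2219.

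Across members listed in both replicates of a pair, scores were moderately alike. Spearman's rho was 0.401 between replicates 1 and 2 (715 members), 0.439 between 1 and 3 (689) and 0.416 between 2 and 3 (759). Among the optimal members it was 0.567, 0.458 and 0.508 for the same pairs. These are descriptions over peaks, which share libraries and are not replicates.

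Within the window that defines the members, summits lay mostly upstream of the start, and optimal summits were gathered in its middle. The median position of all members was 186.5 bp upstream of the nearest start (quartiles 314 to 63 bp upstream), and 85.5% were upstream. Optimal members had a median of 215 bp upstream (298 to 135) and other members 182 bp upstream (316 to 55). Of the optimal members 77.6% had their summit between 50 and 350 bp upstream, against 56.4% of the other members. A single optimal member, at ints-4, had its summit at or downstream of the start, whereas 233 of the 1453 other members did. The share of optimal members was 17.3% in the bin from 200 to 150 bp upstream and 0 of 100 members in the bin from 50 to 100 bp downstream, which allows a share of up to 3%. With the members divided by score into 4 groups of equal size, low to high, 20.5%, 16.6%, 12.4% and 8.40% of summits were at or downstream of the start.

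The highest-scoring members downstream of every start in the window were ints-4, smu-2 (score 28.0, 5 bp downstream), ccch-3 (27.6, 19 bp), C47G2.4 (27.3, 22 bp) and T11G6.5 (27.2, 100 bp). The peaks of smu-2, ccch-3 and C47G2.4 were in no replicate's first 383, and that of T11G6.5 ranked 288 in replicate 3 alone.

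Distances between replicate and pooled summits were taken only for members whose pooled summit lay inside a replicate peak. These were 1024, 1157 and 1089 of the 1618 members in replicates 1, 2 and 3. The width of the covering peak limits this distance, and the replicates went into the pool, so small distances are partly set in advance. The median distance was 37, 19 and 39 bp in that order, a mean of 31.7 bp ± 11 (SD, n = 3). Among optimal members the mean was 15.7 bp ± 5.13 and among other members 35.5 bp ± 13.1. The median signed shift along the gene was −1, 0 and 0 bp, close to 0 in each replicate. For the same covered members, the replicates' own summits had a median position of 191, 184 and 188 bp upstream. The covering rule ties these positions to the pooled summit.

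**Figure D3:**
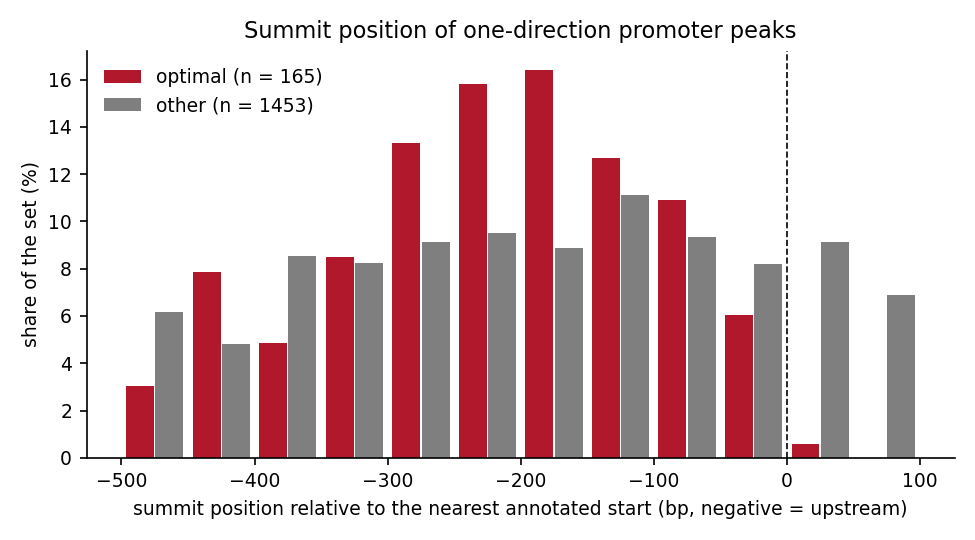
Position of the pooled summit relative to the nearest annotated start in bins of 50 bp, as a share of each set, with upstream positions negative and the start at the dashed line. Bars are the 165 optimal members and the 1453 other members; the optimal bars peak at 16.4% in the bin from 200 to 150 bp upstream and reach 0.606% in the first bin downstream.

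Optimal members were mostly between genes. Their summits fell in intergenic sequence in 146 of 165 (88.5%, 82.6 to 92.9), in introns in 17 and in untranslated exon sequence in 2. Other members were intergenic in 56.1% (53.5 to 58.7), intronic in 16.4%, in untranslated exon sequence in 13.1% and in coding sequence in 14.5% (12.7 to 16.4). Coding sequence held 0 of 165 optimal summits, which allows a share of up to 1.82% taken as 3 counts of 165, and 2.21% as the upper limit of the exact interval. When each replicate's own first 383 peaks were used to split the members, 2.07% ± 1.85 of the high-ranked members and 14.0% ± 0.16 of the rest had their summit in coding sequence (SD, n = 3). The share was lower in 3 of 3 replicates, with the exact permutation p at its smallest value of 0.25. Summits inside non-coding genes were few, with 7 optimal and 40 other members in an annotated ncRNA and 0 and 6 in a tRNA gene.

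The nearest gene upstream was on the opposite strand at 81 of the 165 optimal members (49.1%, 41.2 to 57.0) and at 517 of the 1453 other members (35.6%, 33.1 to 38.1). Since both starts of a closely spaced divergent pair would have put the peak in the divergent class, these head-to-head neighbours lay farther off, at a median of 1352 bp from the start of optimal members and 2220 bp for other members. The neighbour was on the same strand at 79 optimal members (47.9%) and 854 other members (58.8%). Its end was a median of 506 bp away for optimal members and 660 bp for other members. In the 39 optimal members where this gap was under 500 bp, the summit lay between the genes in 37 (94.9%) and inside the neighbour in 2. In the 354 other members with such a gap it lay between the genes in 176 (49.7%) and inside the neighbour in 103 (29.1%). In the remaining 75 it lay at or downstream of the member's own start, as it did in 0 of the 39 optimal members. By replicate rank, 45.4% ± 2.75 of high-ranked members and 36.1% ± 0.231 of the rest had a neighbour on the opposite strand (SD, n = 3, exact permutation p = 0.25, higher in 3 of 3).

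Some leading members stand close to another member or to a ribosomal protein gene. The peaks of ntl-11 and Y73F8A.27 lie at either end of the same gap of 1313 bp between these head-to-head genes. The peak of picd-1 faces rps-27 across 747 bp, and that of Y48B6A.1 faces rpl-43 across 920 bp. The peaks of icd-2 and wwp-1 lie at tandem genes 534 bp apart, where icd-2 encodes a subunit of the nascent polypeptide-associated complex. For 69 genes there was more than 1 member peak, and nurf-1, a subunit of a nucleosome-remodelling complex, had 5 at its alternative starts.

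The sequence around the summit was richer in G+C and in CGCG at optimal members. In windows reaching 100 bp to either side of the summit the median G+C content was 41.3% for optimal members and 36.3% for other members. CGCG was present in 115 of the 165 optimal windows (69.7%, 62.1 to 76.6) and 463 of the 1453 others (31.9%, 29.5 to 34.3). It was in 23.4% of all autosomal pooled windows, and in 20.6% of windows of this length centred 186 bp upstream of the most upstream start of all 17242 autosomal protein-coding genes. At divergent promoter peaks it was in 70.6% of the optimal and 53.6% of the other windows, and outside promoters in 53.2% and 16.5%. Both strands were searched, and CGCG reads the same on either.

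The share was higher within G+C ranges too. Between 35 and 40% G+C, 61.7% of 47 optimal windows and 30.2% of 388 others held CGCG, and between 40 and 45% the shares were 70.2% of 47 and 45.8% of 240. Copies gathered at the summit in the optimal members, with 11.8 per 1000 bp within 20 bp of it and 3.48 per 1000 bp from 80 to 100 bp away. In the other members the densities were 3.08 and 1.88 per 1000 bp at the same distances. Split by each replicate's own ranks, 62.9%, 69.6% and 67.1% of high-ranked members and 33.2%, 32.6% and 32.5% of the rest held CGCG in replicates 1, 2 and 3. The mean difference was 33.8 points ± 3.72 (SD, n = 3, higher in 3 of 3, exact permutation p = 0.25).

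**Figure D4:**
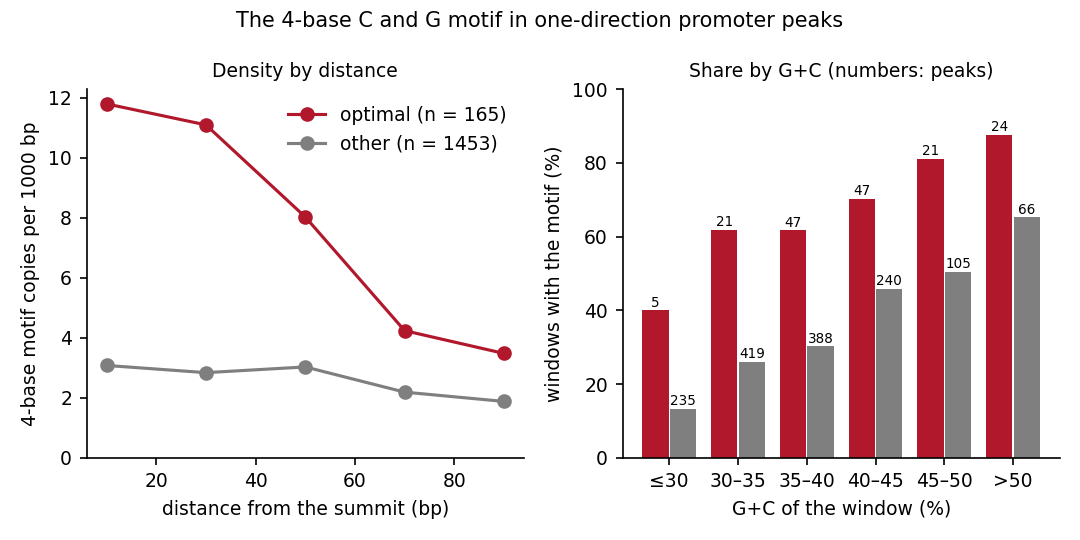
Copies of CGCG per 1000 bp by distance from the summit (left panel) and share of windows (100 bp to either side of the summit) with CGCG by G+C content (right panel, with the number of peaks above each bar), for the 165 optimal and the 1453 other one-direction promoter peaks. The density falls from 11.8 to 3.48 per 1000 bp in optimal members and from 3.08 to 1.88 in the others, and in each G+C range the optimal bar is the higher one, on 5 optimal peaks in the lowest range.

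The other words searched differed by fewer percentage points. The 8-letter CTGCGTCT was in 13.3% (8.55 to 19.5) of optimal windows and 5.44% (4.33 to 6.73) of others, with 3.43% of all autosomal pooled windows and 2.68% of all promoters as the base. GGGCGG was in 12.7% and 5.71% of the optimal and other windows, and GAGAG in 42.4% and 32.1%. The E2F-like word TTCCCGCC was in 3 of 165 optimal windows (1.82%, 0.377 to 5.22) and 14 of 1453 others (0.964%, 0.528 to 1.61). CACGTG was in 4.24% and 3.85%. TTTTTTTT was in 13.3% of optimal and 19.4% of other windows, and GATAA in 36.4% and 40.4%. TTTGAA was in 52.1% and 44.5%, and TGACG in 32.1% and 23.5%. At divergent promoter peaks the difference ran the other way for GGGCGG (8.26% of optimal and 9.68% of other windows) and TGACG (23.9% and 31%). It also did so for TTTTTTTT (18.3% and 17.7%), and the rest of these words differed in the same direction there. All were searched on both strands.

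The members belonged to 1559 genes, 9.04% of the 17242 autosomal protein-coding genes, and 160 of these genes (10.3%) had an optimal member. The median over genes of the highest score at the gene was 14.8. Lists of 26 gene groups were counted against these values, and lists were matched by symbol and not tested.

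Cytosolic ribosomal protein genes had an optimal member at 11 of the 26 with a member peak (42.3%), and the median of their highest scores was 25.8. Beyond rpl-3 and rpl-35 the 11 optimal genes included rps-4 (score 60.9) and rpl-41.2 (49.9), and the lowest of the 11 scored 29.3. The peak of rps-4 was not listed in replicate 1 and ranked 31 and 116 in replicates 2 and 3. Each replicate's own highest-scoring peaks, as many as the optimal list holds, covered fewer of the 26 genes. They covered 8 in replicate 1, 7 in replicate 2 and 6 in replicate 3. Of the 11 optimal genes only rpl-3 and rpl-35 were covered in this way in all 3 replicates, and the others in 1 or 2. A further 33 ribosomal protein genes were at divergent peaks. Of the 11 translation factor genes with a member peak 4 had an optimal one, namely iff-2 and the eIF3 subunit genes eif-3.C (64.2), eif-3.E (39.0) and eif-3.B (36.9). The aminoacyl-tRNA synthetase genes had 0 optimal of 6, which allows up to 50%.

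The mitochondrial ribosome and respiratory chain genes had 6 optimal of 20 (30%). The cytochrome oxidase genes cox-5A and cox-5B scored 92.5 and 79.3, the mitochondrial ribosomal gene mrpl-28 scored 82.0 and the cytochrome c gene cyc-2.1 scored 41.4. The peak of cox-5A ranked 67, 32 and 66, while that of cyc-2.1 ranked 2562, 171 and 137, so replicate 1 put it far lower.

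In the list of DREAM, synMuv and chromatin genes, 5 of 19 had an optimal member (26.3%). The gene lin-9, a core DREAM subunit, scored 74.3 with its summit 106 bp upstream, and ranked 47, 58 and 174. The SWI/SNF gene swsn-3 scored 60.9 and ranked 61, 99 and 250, and the synMuv A gene lin-38 scored 44.2 and ranked 130, 154 and 357. The peak of nurf-1 scored 42.7 and ranked 138, 314 and 540, and efl-1 was just above the threshold. The meiosis, cohesin and recombination list had 3 optimal of 6, among them scc-2 and brc-1, the worm BRCA1 gene, at 52.5. The cell cycle and replication list had 3 of 11, namely cdk-7 (67.8), the PCNA gene pcn-1 (41.7) and the origin recognition gene orc-5 (38.4).

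The remaining lists with an optimal member are read against the 10.3% of all genes with a member peak that had an optimal one. The CCR4-NOT genes ntl-11 and ntl-2 (61) were 2 optimal of 3. The splicing list had 3 of 11, the SR protein gene rsp-6 (43.1), the spliceosome core gene prp-8 (35.9) and the Sm protein gene snr-4 (33.0). The nuclear pore and import list had 3 of 10, the importin gene imb-3 (56.1) and the nucleoporin genes npp-13 (44.1) and npp-8 (39.8). General transcription had 2 of 15 (13.3%), ints-4 and the polymerase subunit gene rpb-11 (41.2). The ubiquitin list had 4 of 20 (20%), wwp-1, ubl-1 (55.8), ubl-5 (34.2) and the cullin gene cul-4 (31.0). Vesicle traffic had 2 of 19 (10.5%), sec-61.G and vps-39 (31.6). Small RNA pathways had 1 of 7 (14.3%), vig-1 at 81.7, and chaperones had 1 of 9 (11.1%), dnj-9 at 42.5. The shares for general transcription, vesicle traffic, small RNA pathways and chaperones are near the one over all genes.

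In 12 of the 26 lists no gene had an optimal member, and most of these lists were too small to bound the share. Chemoreceptor genes had 48 genes with a member peak of 1253 annotated and 0 optimal (up to 6.25% allowed by the count), and the median of their highest scores was 13.2, where the lowest member scored 11.4. Nuclear hormone receptor genes had 0 optimal of 16, which allows up to 18.8%. In the lists that follow the count allows a share of 37.5% or more, so 0 there is no result about the genes. Neuropeptide genes had 0 of 8, collagen genes 0 of 5, muscle genes 0 of 4, homeobox genes 0 of 2 and histone genes 0 of 3. Germ granule and germline RNA regulator genes had 0 of 3, kinase and Ras-family genes 0 of 7, vacuolar ATPase genes 0 of 5 and proteasome genes 0 of 4.

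**Figure D5:**
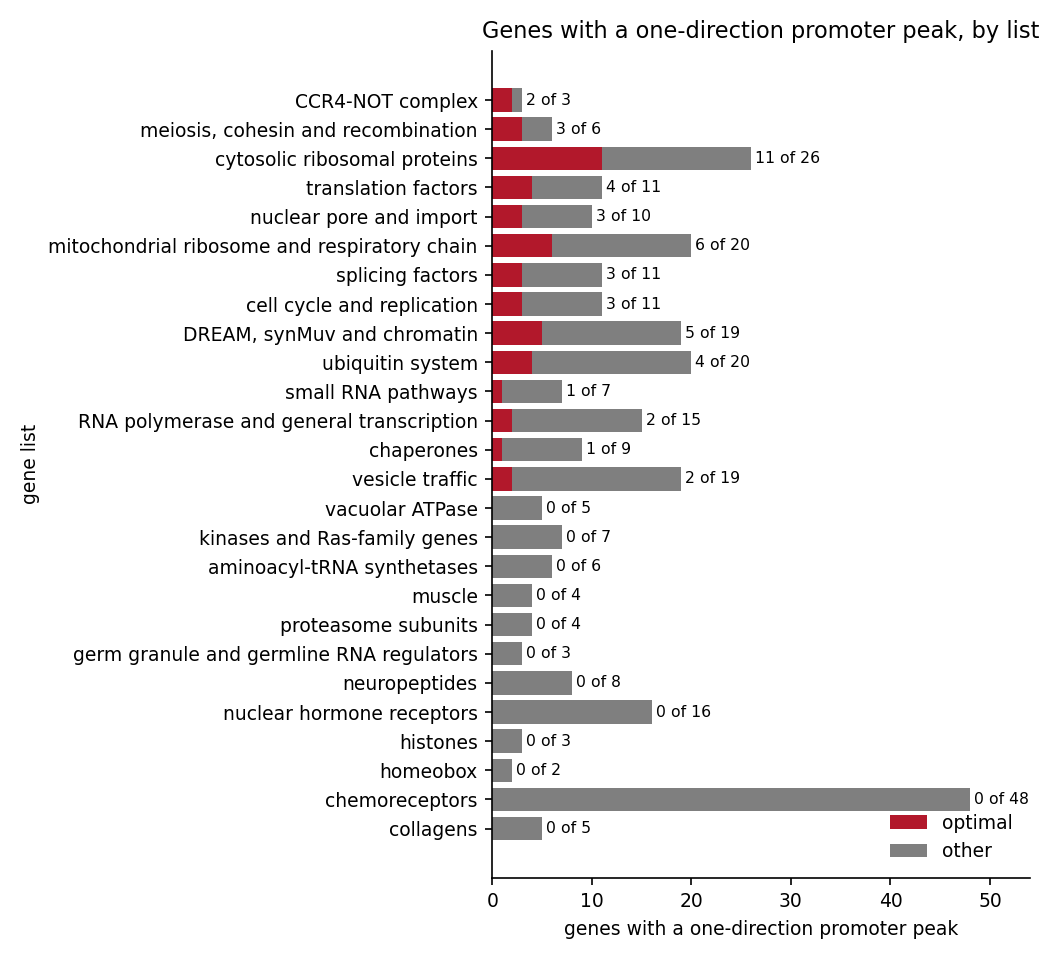
Number of genes with a one-direction promoter peak in each of 26 gene lists, split into genes whose peak overlaps an optimal peak and other genes; lists run from the highest to the lowest optimal share and the count stands at the end of each bar. Cytosolic ribosomal protein genes have 11 of 26 and chemoreceptor genes 0 of 48.

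Members were spread over the 5 autosomes, with 323, 313, 301, 327 and 354 on chromosomes I to V, and optimal members made up 9.91%, 13.7%, 10.3%, 10.1% and 7.34% of them in that order. Applied to each replicate's own list instead of the pooled one, the same rule placed 44.0%, 40.4% and 47.4% of the autosomal peaks in its first 383 at one-direction promoters, against 16.7%, 16.8% and 17.1% of the rest of the list. The mean difference was 27.1 points ± 3.32 (SD, n = 3, higher in 3 of 3, exact permutation p = 0.25). In these own lists CGCG was in 65.6% ± 4.39 of the high-ranked windows and 22.4% ± 1.41 of the rest.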

How the data were processed

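Peaks had been called by the authors for each replicate and for the pool, with background kept as input to a test of irreproducible discovery, per the labels and deposited file descriptions; the labels name no aligner, caller or cutoff. The deposited unit is a score per peak on ce11. Transcript starts came from Ensembl release 115 (WBcel235), and sequence from the RefSeq copy of that assembly. A member counted as recovered when its summit was covered by a peak among the first 383 of a replicate by score, as many as the optimal list holds. Intervals are 95% exact (Clopper-Pearson). Lists on ce10 were not used, and alternatives were other windows, starts, list lengths and overlaps. Replicates were compared by exact sign flips, two-sided. Assignment and coverage were tested on simulated data, with 200 of 200 peaks classed and 200 of 200 covered as made. Replicates are labelled biological with no detail of separate cultures, so the comparisons cover these samples only. In the exact sign-flip test, 3 differences of the same sign give p = 0.25 whatever their spread. Named genes were the 20 highest-scoring members, the 3 on either side of the threshold, up to 4 optimal genes per list, and up to 5 in no replicate's first 383 or downstream of the start. The 7 members that overlap an optimal neighbour, the genes facing leading members and nurf-1's number of peaks were chosen after their values were seen. Members and lists were chosen with earlier results of these data known. Python 3.11.15, numpy 2.4.6, pandas 2.3.3, scipy 1.17.1, Biopython 1.88 and matplotlib 3.10.9 were used.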

Additional observations from a re-analysis of the deposited data

How the results depend on the processing

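The sign of the recovery differences held under every alternative that was run, and leaving out a replicate gave −16.3 to −13.9 points from divergent promoter peaks and 6.76 to 7.32 points from peaks outside promoters. The share of members that are optimal was 14% with a window from 250 bp upstream to 50 bp downstream, 6.88% with one from 1000 to 200 bp, and 5.62% for the upper 50 percent of the optimal list. The median score was 15.5, 14 and 15 with the narrow window, the wide window and the most upstream start of each gene. With the same 3 settings the median position was −117, −283.5 and −191 bp, set largely by the window itself. It was −191 bp for the upper 50 percent of scores. With a replicate left out it was −193 to −190 bp, over members listed in both other replicates. The distance between replicate and pooled summits was 28 to 38 bp with a replicate left out and 18 bp in the first 383 peaks. In windows of 50 bp to either side of the summit, 57.6% of optimal and 20.1% of other members held CGCG. With the wide window, optimal translation factor genes numbered 2, germ granule genes 1 and small RNA genes 2. Leaving out chromosome I, chosen after seeing the data, gave 10.3%. Depth is unknown, so its effect on the low-scoring peaks cannot be told.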

Other observations

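All 2080 words of 6 letters, counting a word and its reverse complement as 1, were ranked by the difference in the share of summit windows between optimal and other members, after the data had been seen. The first was GAGCGC, in 31.5% of optimal and 8.67% of other windows. The same word also ranked 1 of 2080 by the same difference at divergent promoter peaks, which are not members, with 38.5% of optimal and 13.7% of other windows. The overlapping word CGCTCC, the reverse complement of GGAGCG, ranked 8 in members (26.1% and 6.81%) and 2 at divergent promoter peaks (33.9% and 10.9%).

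AGCGCG, which overlaps GAGCGC, ranked 4 in members (28.5% and 7.30%) and 5 at divergent promoter peaks (28.4% and 14.5%). Other words ranked high in members and lower at divergent promoter peaks. GACGCA ranked 2 in members (32.1% of optimal and 9.70% of other windows) and 216 at divergent promoter peaks (20.2% and 16.1%). GCGAAA ranked 3 (39.4% and 17.8%) and 245 (31.2% and 27.4%), and GCGCAC ranked 6 (26.7% and 6.54%) and 352 (22% and 19%). Whether these words differ between the classes was not tested.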
